A study of Homo sapiens with 10 samples.

Results

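TBXT, EOMES, TBX6 and TBX3 are transcription factors of the T-box family with roles around the primitive streak of the embryo. They were followed by RNA sequencing in ESI017, a human pluripotent stem cell line of wild-type genotype, with and without stimulation of canonical WNT signalling. The members were chosen by symbol: 4 of the 35940 gene symbols in the table, each with 1 Ensembl identifier, and all 4 passed the filter on low counts that left 15251 symbols for testing. Every cell was kept in mTeSR1, a defined medium that maintains pluripotency. Plating 24 h before treatment is stated for every library, those of mTeSR1 alone included. The 5 groups of 2 libraries were mTeSR1 alone, the medium with the ligand WNT3A at 300 ng/ml for 6 h or for 18 h, and the medium with CHIR99021 at 8 µM for 6 h or for 18 h. CHIR99021 is a chemical inhibitor of GSK3, and since GSK3 tags β-catenin for breakdown, blocking it lets β-catenin build up without a ligand. Replicates 1 and 2 are the study's biological repeats 1 and 2, except that both CHIR99021 18 h libraries belong to repeat 2, and whether they came from separate wells is not stated. The mTeSR1 group has no stated time, and no solvent group for CHIR99021 is among the samples, so the agent, its solvent and time in culture cannot be told apart.

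T-box proteins bind DNA through a shared domain, and several of them switch on lineage genes as cells leave pluripotency. TBXT, also called Brachyury, marks the streak, the early mesoderm and the notochord and is a classical target of WNT signalling. EOMES acts in the streak as well, where NODAL signalling sustains it and where it prepares cells for definitive endoderm and cardiac mesoderm. TBX6 works later, in presomitic mesoderm, and TBX3 is known both in naive pluripotency and in several developing organs.

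All 4 genes lie on the minus strand of GRCh38, and in GENCODE release 29 no other gene overlaps any of them. TBXT (ENSG00000164458) spans 166157656 to 166168700 on chromosome 6, and EOMES (ENSG00000163508) spans 27715949 to 27722711 on chromosome 3. TBX6 (ENSG00000149922) lies at 30085793 to 30091887 on chromosome 16, and TBX3 (ENSG00000135111) at 114670254 to 114684164 on chromosome 12. Their merged exons measure 2.629 kb for TBXT, 3.656 kb for EOMES, 3.137 kb for TBX6 and 5.95 kb for TBX3.

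Because TBXT and EOMES carried the largest responses, the 250 bases before their RefSeq start sites (GRCh38.p14) were searched for short words known from WNT, NODAL and T-box biology. Of the 4 members, 3 matched the RefSeq table by symbol, and TBXT has 2 start sites there. The first stretch shown lies before the downstream TBXT start, in an intron of the longer GENCODE transcripts, and is given because it holds the only TCF/LEF word found in any member. The others are 30-base sites around the word TTTATAA, which both TBXT, at its upstream start, and EOMES hold, inside exons of the longest GENCODE models of each gene. Sequences run 5′ to 3′ on the gene's strand, and capitals mark the matched word, which in the first is the reverse complement of CTTTGAA.
TBXT, chr6:166167878-166168101, minus strand: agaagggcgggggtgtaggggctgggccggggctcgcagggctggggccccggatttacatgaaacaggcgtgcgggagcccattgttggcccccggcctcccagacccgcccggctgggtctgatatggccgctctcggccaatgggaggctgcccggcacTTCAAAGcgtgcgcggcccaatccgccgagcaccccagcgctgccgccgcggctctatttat
TBXT, chr6:166168666-166168695, minus strand: caagtcctgttTTTATAAgagagcgaggag
EOMES, chr3:27722336-27722365, minus strand: cccatcctgccTTTATAAtaaggccaccgg

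The TCF/LEF word sits 88 to 82 bases before the downstream TBXT start. TTTATAA begins 29 bases before the upstream TBXT start and 31 bases before the EOMES start. TCF/LEF words (CTTTGAT or CTTTGAA, or else CTTTGTT or CTTTGTA, on both strands) occur in 12% of the 35116 RefSeq promoters of this length. TTTATAA, read on the gene's strand only and added to the search after the sequences were seen, occurs in 1.89%. CAGAC, the core SMAD word, was found 2 times before the downstream TBXT start and 1 time before TBX6, and 38% of promoters hold it. GGTGTGA, a T-box half-site held by 2.76% of promoters, and TGTGGATT, a FOXH1 word held by 0.709%, were not found in any of these windows. A match describes letters in the window and no binding was measured.

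Library totals lay between 16648300 and 26732900 estimated counts, so that 3 counts, taken as the floor of detection, correspond to 0.118 to 0.179 CPM (counts per 1e+06 counts of the TMM-scaled library). The cells carried the transcripts of pluripotent cells in all groups: 9 markers, POU5F1, SOX2 and NANOG among them, summed to between 7061 and 10043 CPM per library. Mitochondrial transcripts made up 2.70% to 6.73% of counts. The second libraries of mTeSR1 and of WNT3A 6 h stood apart, in that their deviations rose with exon length. Their Spearman coefficients across genes were 0.293 and 0.397, where those of the other 8 libraries were below 0. The edgeR calls of T-box members that rest on them are given with and without them, and those of most gene lists as counts. For the genes nearest in profile and some naive pluripotency genes, calls are given only with them. Fewer cells that express a gene and less RNA per cell cannot be told apart in these bulk samples.

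TBXT and EOMES were at or near 0 in mTeSR1 and at 49.2 to 99.1 CPM in 3 of the 4 libraries treated for 18 h, the other, CHIR99021 18 h replicate 1, being at 3.51 CPM for TBXT and 11.2 CPM for EOMES. After 6 h both were higher with WNT3A than with CHIR99021 in each repeat. TBX6 stayed within a range of 0.378 to 1.73 CPM and was not higher in any treated group's mean than in mTeSR1. TBX3 was scarce but lay above its mTeSR1 values in all 8 treated libraries.

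TBXT had 0 counts in both mTeSR1 libraries. WNT3A for 6 h gave 13.2 and 9.23 CPM (279 and 235 counts), and WNT3A for 18 h gave 60.6 and 54.5 CPM (1288 and 948 counts). CHIR99021 for 6 h gave 1.24 and 1.56 CPM (23 and 29 counts), and for 18 h it gave 3.51 and 49.2 CPM (59 and 872 counts). All 8 treated libraries were thus above the untreated floor, and the WNT3A 18 h pair was above every other library. In order of the means the groups ran mTeSR1, CHIR99021 6 h (1.40 ± 0.227 CPM, SD, n = 2), WNT3A 6 h (11.2 ± 2.78), CHIR99021 18 h (26.3 ± 32.3) and WNT3A 18 h (57.6 ± 4.32). CHIR99021 18 h overlapped WNT3A 6 h, and no other neighbours in this order overlapped. Against a floor of 3 counts per mTeSR1 library, TBXT was at least 68.5-fold higher after WNT3A 6 h, at least 352-fold after WNT3A 18 h, at least 8.59-fold after CHIR99021 6 h and at least 161-fold after CHIR99021 18 h. For the last, the separate libraries gave at least 20.6-fold and at least 289-fold.

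EOMES had 0 and 5 counts in mTeSR1, which is 0 and 0.283 CPM. With WNT3A it stood at 30.9 and 15.5 CPM at 6 h and at 99.1 and 57.0 CPM at 18 h. With CHIR99021 it stood at 3.89 and 2.54 CPM at 6 h and at 11.2 and 74.8 CPM at 18 h. Repeat 1 was higher than repeat 2 in each of the 3 treated groups that have both. The order of the means was that of TBXT: 0.142 ± 0.200 CPM in mTeSR1, 3.22 ± 0.954 in CHIR99021 6 h, 23.2 ± 10.9 in WNT3A 6 h, 43.0 ± 45.0 in CHIR99021 18 h and 78.1 ± 29.7 in WNT3A 18 h. The CHIR99021 18 h pair overlapped both WNT3A groups. From counts pooled over the pairs, the ratio of EOMES to mTeSR1 was 166 (95% counting interval 70.7 to 511) for WNT3A 6 h, 589 (252 to 1816) for WNT3A 18 h, 23.6 (9.84 to 74.1) for CHIR99021 6 h and 323 (138 to 995) for CHIR99021 18 h. Such intervals cover counting error only.

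TBX6, the presomitic factor, had 32 and 29 counts in mTeSR1, or 1.67 and 1.64 CPM. It measured 0.707 and 1.73 CPM after WNT3A 6 h, 1.46 and 1.21 CPM after WNT3A 18 h, 0.378 and 1.08 CPM after CHIR99021 6 h, and 0.835 and 1.35 CPM after CHIR99021 18 h. WNT3A 6 h overlapped mTeSR1, while the other 3 treated groups lay below it. The pooled ratio to mTeSR1 was 0.439 (95% counting interval 0.268 to 0.702) for CHIR99021 6 h and between 0.664 and 0.811 for the other treated groups. Both repeats were lower with CHIR99021 6 h than with mTeSR1, by ratios of 0.226 and 0.656.

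TBX3 had 2 and 3 counts in mTeSR1, or 0.105 and 0.170 CPM, the second just at the floor. It measured 0.802 and 1.61 CPM after WNT3A 6 h, 0.329 and 0.921 CPM after WNT3A 18 h, 0.486 and 0.593 CPM after CHIR99021 6 h, and 0.596 and 1.02 CPM after CHIR99021 18 h. No treated library overlapped mTeSR1. Both WNT3A 6 h and CHIR99021 18 h lay above CHIR99021 6 h, the second by a margin of less than 1 count, and the other pairs of treated groups overlapped. Pooled ratios to mTeSR1 were 9.14 (95% counting interval 3.70 to 29.2) for WNT3A 6 h, 4.38 (1.63 to 14.7) for WNT3A 18 h, 3.97 (1.45 to 13.5) for CHIR99021 6 h and 5.97 (2.28 to 19.8) for CHIR99021 18 h. Replicate 2 was the higher library in all 5 groups. TBX3 has the longest exons of the members, and its highest value is in WNT3A 6 h replicate 2, a library with a length trend, whose part in that level was not tested.

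**Figure D1:**
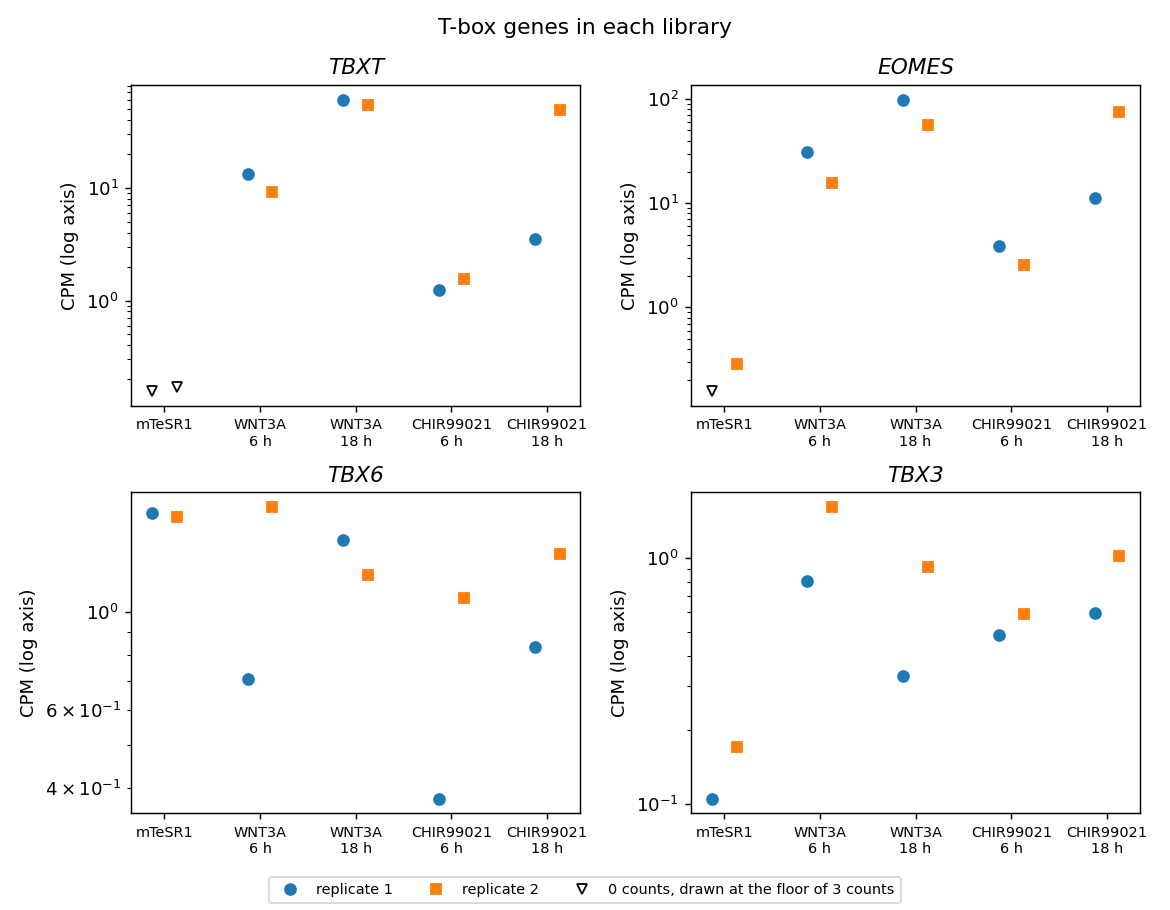
Level of each T-box gene in CPM on a log axis, with its own range for each gene, in the 10 libraries of the 5 groups; circles are replicate 1, squares replicate 2, and open triangles are libraries with 0 counts, drawn at the floor of 3 counts. TBXT and EOMES span from the floor to 60.6 and 99.1 CPM with the CHIR99021 18 h pair far apart, while TBX6 and TBX3 stay below 2 CPM.

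The design first asks which of these genes respond to each agent and time. A gene was called changed at a Benjamini-Hochberg adjusted p (FDR) under 0.05 in edgeR's quasi-likelihood test over all 15251 symbols. After 18 h of WNT3A, 2 of the 4 members, TBXT and EOMES, rose, where 2.1% of all genes were called (1.04% higher and 1.06% lower). With the biological repeat as a block 1 of 4, EOMES, was called there, beside 751 genes in all in place of 320. After 18 h of CHIR99021, 1 of 4 rose, EOMES, where 2.78% of all genes were called (1.15% higher and 1.63% lower). That comparison was fitted with the block, while the main fits of the others with mTeSR1 were without it. Without the block 2 of 4, TBXT and EOMES, were called there, beside 181 genes in all in place of 424. The main counts at 18 h thus come from unlike models and do not compare the agents. After 6 h, 0 of 4 were called with WNT3A, where 0.433% of all genes were (0.387% higher and 0.0459% lower). After 6 h of CHIR99021 0 of 4 were called, where 0.0197% of all genes were, all of them higher. At an unadjusted p under 0.05, 3 of 4 passed in each of these 4 comparisons, TBX6 being the exception. Of all 15251 genes, 939 and 2076 passed it after 6 h and 18 h of WNT3A. After 6 h and 18 h of CHIR99021, 723 and 2996 did. DESeq2 called TBXT and EOMES after WNT3A at 6 h and at 18 h and after CHIR99021 at 18 h, and TBXT alone after CHIR99021 at 6 h. Among all genes DESeq2 called 249 and 808 after 6 h and 18 h of WNT3A, and 65 and 923 after 6 h and 18 h of CHIR99021.

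For EOMES the fitted log2 change from mTeSR1 was 9.09 ± 1.27 (SE) with an FDR of 0.0115 after WNT3A 18 h, and 8.65 ± 1.34 with an FDR of 0.0204 after CHIR99021 18 h. It was 7.34 ± 1.27 after WNT3A 6 h, where the FDR of 0.0573 missed the threshold, and 4.49 ± 1.40 after CHIR99021 6 h (FDR 0.947). The EOMES call at WNT3A 18 h was lost without mTeSR1 replicate 1 (FDR 0.0980), mTeSR1 replicate 2 (0.0885), WNT3A 18 h replicate 1 (0.0569) and the pair of libraries with a length trend (0.245). The call at CHIR99021 18 h was lost without mTeSR1 replicate 1 (0.106), mTeSR1 replicate 2 (0.207) or that pair (0.541). In each of these fits EOMES was higher in the treated group.

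For TBXT no fitted log2 change from mTeSR1 is given because its untreated counts are 0. Its FDR was 0.0230 after WNT3A 18 h, 0.111 after CHIR99021 18 h, 0.141 after WNT3A 6 h and 0.954 after CHIR99021 6 h. With the biological repeat as a block the FDR at WNT3A 18 h was 0.0614, so the call was lost, as it was without any 1 of the 4 libraries compared (FDR 0.0807 to 0.158) or without the pair with a length trend (0.322). At CHIR99021 18 h the reverse held. TBXT passed when either library of the pair was left out, with FDRs of 0.000172 without replicate 1 and 0.0102 without replicate 2. Each such fit leaves 1 library in the group, which is assumed to vary like those of the other groups. It also passed without the block, at an FDR of 0.0482.

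TBX3 had log2 changes from mTeSR1 of 3.09 ± 0.76 after WNT3A 6 h (FDR 0.218), 2.12 ± 0.79 after WNT3A 18 h (0.263), 1.93 ± 0.80 after CHIR99021 6 h (0.954) and 2.11 ± 0.70 after CHIR99021 18 h (0.156). It was thus higher in each treated group but passed in none. TBX6 had log2 differences of -0.43 ± 0.58, -0.31 ± 0.58, -1.18 ± 0.61 and -0.88 ± 0.58 in the same order, with FDRs of 1.00, 0.860, 0.954 and 0.408.

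From 6 h to 18 h of WNT3A, TBXT was 4.61-fold and 5.91-fold higher in the 2 repeats and EOMES 3.21-fold and 3.67-fold higher. The log2 differences were 2.36 (95% interval 0.26 to 4.47) for TBXT and 1.75 (0.01 to 3.49) for EOMES, but at FDRs of 0.351 and 0.377 they did not pass over all genes. TBX3 went the other way in both repeats, to 0.411 and 0.572 of its 6 h level, a log2 difference of -0.97 (-2.41 to 0.48, FDR 0.50) that was -0.37 without the pair of libraries with a length trend. Of the members 0 of 4 were called, beside 0.144% of all genes (0.0459% higher and 0.0984% lower), and DESeq2 called 0. At an unadjusted p under 0.05, 2 of 4 passed, beside 2017 of the 15251 genes.

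From 6 h to 18 h of CHIR99021, the level of the repeat 2 library at 6 h served both 18 h libraries. TBXT was 2.25-fold and 31.4-fold higher than there, and EOMES 4.4-fold and 29.4-fold. The fitted log2 differences were 4.33 (0.85 to 7.81, FDR 0.572) and 4.16 (2.04 to 6.28, FDR 0.264). Without CHIR99021 18 h replicate 1 they were 5.23 and 4.95 and passed, at FDRs of 0.00152 and 0.00412, on 1 library at 18 h with the spread taken from the other groups. With both libraries 0 of 4 members were called, beside 0.00656% of all genes, and 0 were called by DESeq2. At an unadjusted p under 0.05, 2 of 4 passed, beside 1045 of the 15251 genes. TBX6 and TBX3 had log2 differences of 0.38 and 0.15.

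The second question is whether a block of GSK3 gives the level that the ligand gives. At 6 h, CHIR99021 over WNT3A gave TBXT ratios of 0.0945 and 0.169 in the 2 repeats and EOMES ratios of 0.126 and 0.164. Both repeats of both genes were lower with CHIR99021, and the groups did not overlap. The log2 differences were -2.99 (-5.39 to -0.58) for TBXT and -2.85 (-4.78 to -0.92) for EOMES, each with an FDR of 0.691. TBX3 was also lower in both repeats, at ratios of 0.607 and 0.368, and TBX6 at 0.535 and 0.624. None of the 4 members was called, 0.00656% of all genes were, and 0 members were called by DESeq2. At an unadjusted p under 0.05, 2 of 4 passed, beside 996 of the 15251 genes.

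At 18 h the outcome depended on the CHIR99021 library. Over the WNT3A library of the same repeat, TBXT was at 0.0644 in replicate 1 and at 0.902 in replicate 2, and EOMES was at 0.196 and 1.31. The log2 differences were -1.02 (-3.81 to 1.78) for TBXT, -0.43 (-2.22 to 1.36) for EOMES, -0.59 (-1.93 to 0.74) for TBX6 and 0.04 for TBX3, all with an FDR of 1. Without CHIR99021 18 h replicate 2 the TBXT difference was -3.92 and passed (FDR 0.0348), again on 1 CHIR99021 library, and without replicate 1 the EOMES difference was 0.37. With both libraries 0 of 4 members were called, 0 were called by DESeq2, and among all genes 0% were called. At an unadjusted p under 0.05, 0 of 4 passed, beside 629 of the 15251 genes. The test of whether the change from 6 h to 18 h differed between the agents gave log2 values of 1.95 (-2.36 to 6.26) for TBXT, 2.39 (-0.25 to 5.02) for EOMES, 0.15 (-1.69 to 1.99) for TBX6 and 1.13 (-0.65 to 2.91) for TBX3. Of these 0 of 4 were called (FDR 0.927 to 0.987), DESeq2 called 0, and 0% of all genes were called. At an unadjusted p under 0.05, 0 of 4 passed, beside 574 of the 15251 genes.

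**Figure D2:**
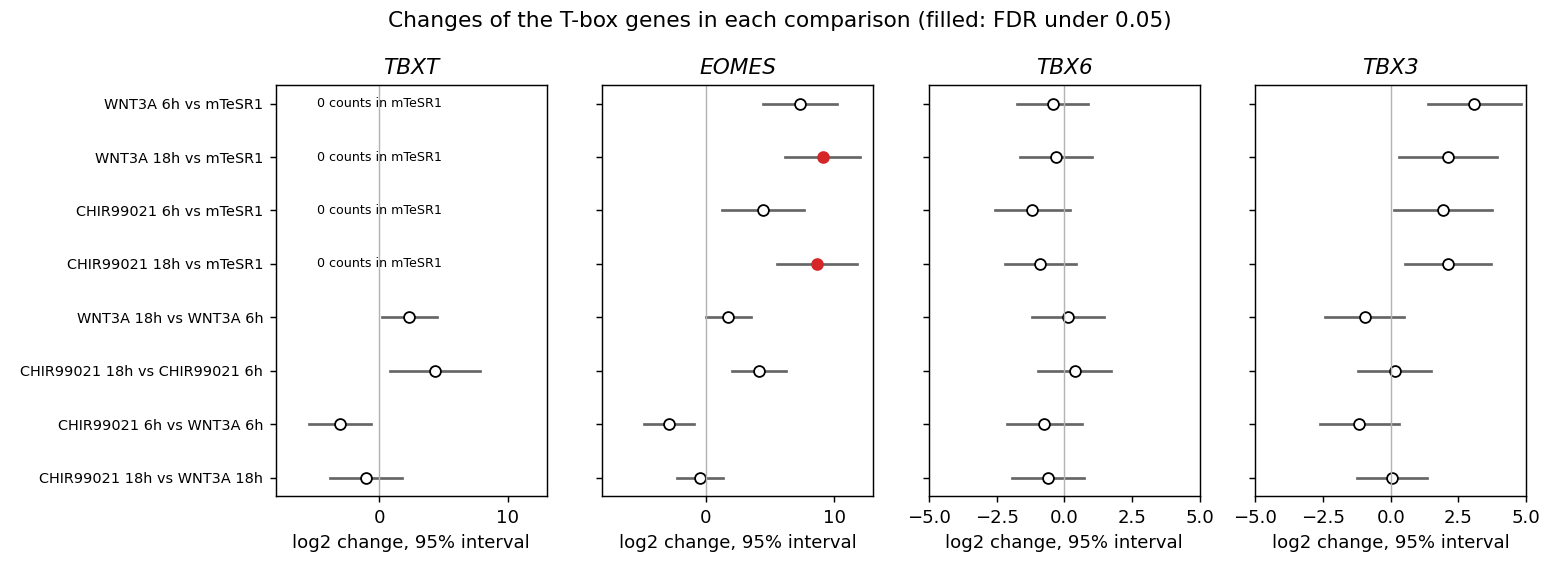
Fitted log2 change of each T-box gene in 8 comparisons (rows), with its 95% interval; filled red points have an FDR under 0.05. TBXT is not drawn against mTeSR1, where it has 0 counts, although it passed after WNT3A 18 h; EOMES lies at 9.09 and 8.65 in the comparisons it passed, and the intervals of TBX6 all include 0.

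The CHIR99021 18 h libraries differed in TBXT by 14.0-fold and in EOMES by 6.69-fold, replicate 2 being higher, against 1.62-fold for TBX6 and 1.70-fold for TBX3. The TBXT difference was larger than that of 99.8% of all genes tested and the EOMES difference larger than that of 99.5%. Across all genes this pair was the closest of the 5, with an SD of the log2 difference of 0.546 against 0.577 to 0.759 in the other pairs. Those pairs each span repeats 1 and 2, while both CHIR99021 18 h libraries are of repeat 2, so the SDs are not like for like. Mitochondrial shares were 5.12% and 5.14%, and the totals were 16648300 and 17295200 counts. On the first principal component, with 30.2% of the variance, replicate 2 scored 42.3, beside 35.7 and 38.8 for the WNT3A 18 h libraries. Replicate 1 scored 8.43, between the CHIR99021 6 h libraries (-3.70 and -4.85) and those.

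Genes of the streak differed within that pair in both directions. The values compare 1 library with 1 library, so there is no test. Of 12 streak genes with more than 3 counts in either library, 4 were over 2-fold higher in replicate 2 and 4 were at under 0.5 of replicate 1. Of 10 such genes of posterior mesoderm, 5 were higher and 1, LFNG, lower. The share of all genes beyond these limits was not worked out. By over 4-fold, in either direction, 1.07% of all genes tested differed within the pair (log2 CPM, prior count 2). Small counts enter too, such as CER1 of the streak list, at 1 count in replicate 2 and 5 in replicate 1. EVX1, a homeobox gene of the posterior streak, had 923 counts in replicate 2 and 2 in replicate 1. CDX2 was 43.4-fold and CDX1 24.2-fold higher in replicate 2, both being caudal homeobox genes, MIXL1, a streak homeobox gene, 11.4-fold, and WNT5B, a non-canonical ligand, 6.03-fold. LHX1 had 25 counts against 0. Among readouts of the pathway, AXIN2, a feedback inhibitor, differed by 2.07-fold, SP5, a direct target, by 2.74-fold, NKD1 by 3.83-fold and LEF1, a nuclear effector, by 10.6-fold. NODAL and WNT3, ligands that induce the streak, differed by 1.13-fold and 1.19-fold. FGF8 and TDGF1, a ligand and a NODAL co-receptor, were at 0.633 and 0.656 of replicate 1, and SNAI1, a repressor of epithelial genes, at 0.969. The NODAL antagonists LEFTY1 and LEFTY2 went the opposite way from TBXT, with 320 and 148 counts in replicate 1 and 19.6 and 14.4 in replicate 2. Such a spread was not particular to this pair. Between the WNT3A 18 h libraries LEFTY1 differed by 18.9-fold and LEFTY2 by 23.8-fold, where TBXT differed by 1.11-fold. POU5F1, SOX2 and NANOG were at 0.937, 0.871 and 0.816 of replicate 1.

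**Figure D3:**
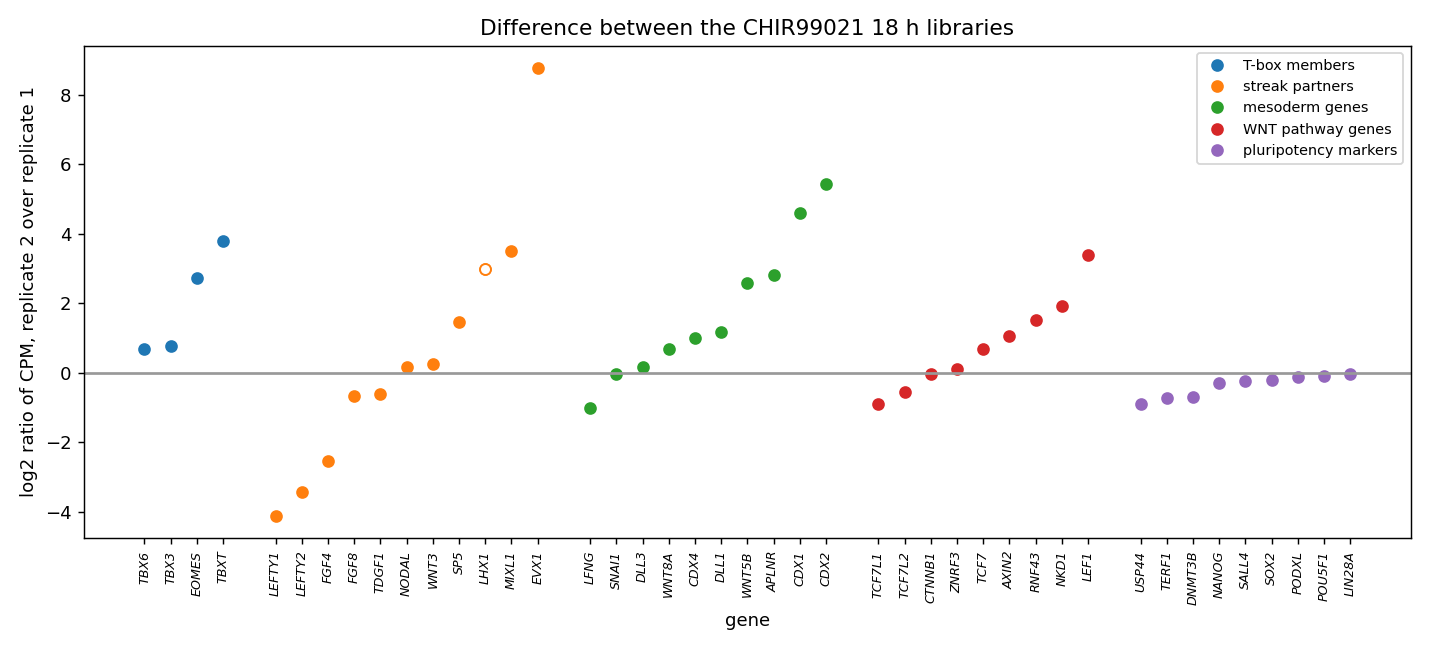
Log2 ratio of CPM in CHIR99021 18 h replicate 2 over replicate 1, gene by gene, for the T-box members and 4 gene lists, limited to genes with at least 10 counts in either library; the open circle is a lower bound (0 counts in replicate 1). TBXT and EOMES lie among EVX1, CDX1, CDX2, MIXL1 and LEF1 well above 0, LEFTY1 and LEFTY2 well below it, and the pluripotency markers at or below 0.

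Set side by side per kb of merged exons, EOMES exceeded TBXT in 7 of the 8 treated libraries. Merged exons take in all annotated transcripts of a gene. The lengths of the transcripts expressed here were not worked out, and ratios near 1 could depend on them. The ratio of EOMES to TBXT was 1.69 and 1.21 after WNT3A 6 h, 1.18 and 0.752 after WNT3A 18 h, 2.25 and 1.17 after CHIR99021 6 h, and 2.29 and 1.09 after CHIR99021 18 h. It was lower at 18 h than at 6 h of WNT3A in both repeats. TBX6 lay at 0.121 to 0.551 CPM per kb in treated libraries, below EOMES in each of them, and TBX3 at 0.0554 to 0.271. In mTeSR1 the order was different, with TBX6 highest of the members at 0.533 and 0.524 CPM per kb.

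Of the other 13 T-box genes in the table none was called against mTeSR1. MGA, which pairs a T-box with a MAX-binding domain, was expressed at 62.0 to 140 CPM, with its highest values in the libraries with a length trend (110 CPM in mTeSR1 replicate 2 and 140 CPM in WNT3A 6 h replicate 2). TBX22, a gene of palate development, stood at 0.418 and 0.170 CPM in mTeSR1, 1.18 and 1.79 CPM after WNT3A 18 h and 0.895 and 0.564 CPM after CHIR99021 18 h. Its log2 change of 2.29 ± 0.65 after WNT3A 18 h had an FDR of 0.133. TBX10 and TBX19 lay between 0.118 and 1.18 CPM. TBX2 had 0 counts in all 10 libraries, and TBR1, TBX1, TBX4, TBX5, TBX15, TBX18, TBX20 and TBX21 stayed at or below 0.377 CPM. Of the 4 that passed the filter, MGA, TBX10, TBX19 and TBX22, 0 were called by edgeR or DESeq2 in any comparison with mTeSR1, and 1, TBX22, had an unadjusted p under 0.05, after WNT3A 18 h.

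**Figure D4:**
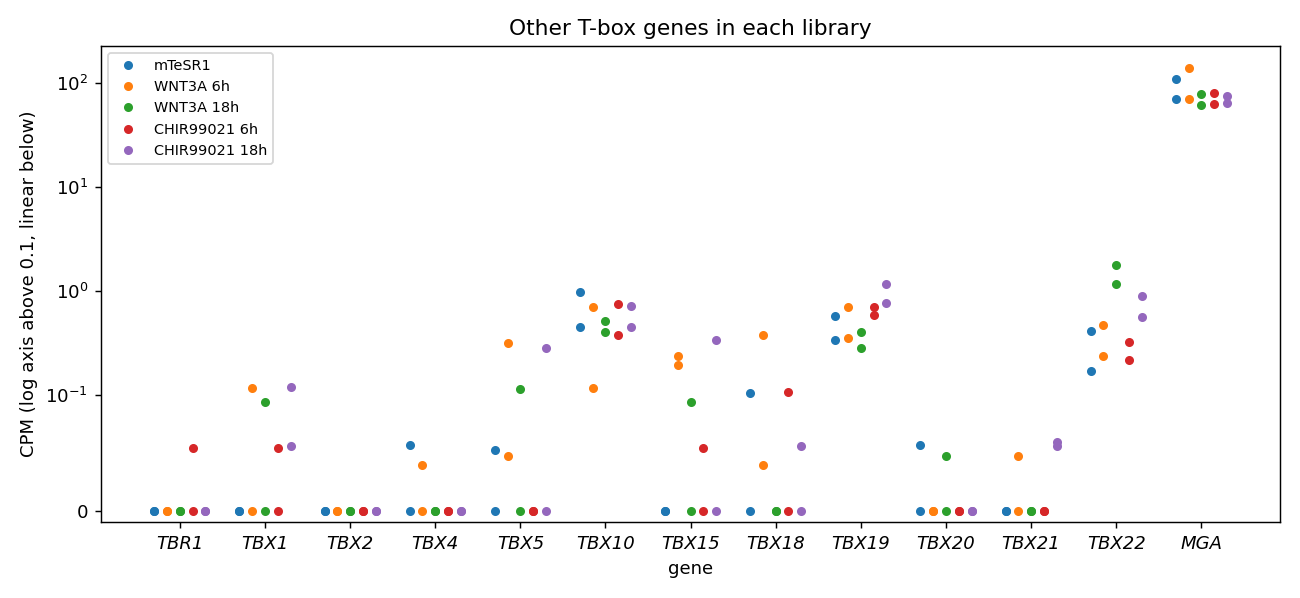
CPM of the other 13 T-box genes in each library, coloured by group, on an axis that is logarithmic above 0.1 and linear below. MGA lies at 62.0 to 140 CPM, TBX22 reaches 1.79 CPM after WNT3A 18 h, and the remaining genes stay at or below 1.18 CPM.

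Genes that work with TBXT and EOMES in the streak were read from a list of 15, of which 14 were in the table and 13 tested. After WNT3A 18 h, 4 rose and 0 fell, with a median log2 change over the list of 2.94 beside 0.02 over all genes. They were SP5 (10.68 ± 0.85), WNT3 (3.46 ± 0.47), NODAL (4.76 ± 0.72) and MIXL1 (6.81 ± 1.24). After CHIR99021 18 h, 4 rose, NODAL (4.24 ± 0.30), SP5 (10.59 ± 0.79), WNT3 (2.43 ± 0.27) and the ligand FGF8 (2.98 ± 0.61), 0 fell, and the list median was 0.94. After 6 h edgeR called SP5 and no other gene of the list with either agent (10.27 ± 0.84 with WNT3A, 8.24 ± 0.82 with CHIR99021). DESeq2 also called NODAL and WNT3 at 6 h with each agent, and EVX1 and MIXL1 with WNT3A. At 18 h it called the same 6 with each agent, all higher: EVX1, FGF8, MIXL1, NODAL, SP5 and WNT3. With the block, NODAL and WNT3 also passed at 6 h with each agent, and FGF8 at 18 h of WNT3A. The edgeR counts rested on single libraries. After WNT3A 18 h 1 gene in place of 4 was called without mTeSR1 replicate 1, mTeSR1 replicate 2, WNT3A 18 h replicate 2 or the pair with a length trend. After CHIR99021 18 h 2 genes were called without mTeSR1 replicate 2 and 1 without the pair. SP5 at 6 h was not called without the pair with either agent, nor with CHIR99021 without any 1 of the 4 libraries compared. GSC, the organizer gene, reached 1.84 CPM in 1 library and at most 0.338 CPM in the others.

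Of 18 genes of posterior and presomitic mesoderm, 11 were tested, and WNT5B and WNT8A, both WNT ligands, rose after 18 h of either agent. The log2 change of WNT5B was 6.42 ± 0.96 with WNT3A and 6.15 ± 0.96 with CHIR99021, and for WNT8A, at 0 counts in mTeSR1, levels were 3.86 and 5.52 CPM with WNT3A and 2.15 and 3.45 CPM with CHIR99021. In these edgeR fits 0 of the 11 fell. LFNG, a Notch modifier, had a log2 change of -1.72 ± 0.49 after WNT3A 18 h (FDR 0.135), and passed with the block (FDR 0.0181) and by DESeq2. After WNT3A 18 h 0 genes were called without any 1 of the 4 libraries compared and 1 without the pair with a length trend. After CHIR99021 18 h 0 were called without either mTeSR1 library, and 1 without CHIR99021 18 h replicate 2 or without the pair, while 5 were without CHIR99021 18 h replicate 1. The list medians were 1.57 and 1.64. DESeq2 called 6 after WNT3A 18 h, 5 higher and 1 lower, adding APLNR, CDX1, CDX2 and LFNG to the edgeR calls. After CHIR99021 18 h it called 5, all higher, adding CDX1, CDX2 and DLL1. At 6 h 0 were called with either agent by edgeR, unadjusted p-values under 0.05 numbered 4 and 2, and calls by DESeq2 numbered 3 with WNT3A and 0 with CHIR99021. MSGN1, a direct target of TBX6, had a count in 1 of the 10 libraries, MESP1 did not exceed 0.472 CPM, and RIPPLY1 and HES7 not 0.173 CPM.

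Of 10 genes of endoderm and cardiac mesoderm, 6 were tested. FOXA2, an endoderm and axial mesoderm factor, rose by 3.92 ± 0.58 after WNT3A 18 h and by 3.82 ± 0.62 after CHIR99021 18 h. GATA4 rose after CHIR99021 18 h by 4.25 ± 0.85, and PDGFRA fell by 2.30 ± 0.44 after WNT3A 18 h. GATA4 was also called after WNT3A 18 h with the block (FDR 0.00910) and by DESeq2. In place of 2 genes at WNT3A 18 h, 0 were called without any 1 of the 4 libraries compared and 1 without the pair with a length trend. In place of 2 at CHIR99021 18 h, 0 were called without either mTeSR1 library or without CHIR99021 18 h replicate 2, and 1 without the pair. After 6 h 0 of 6 were called by edgeR or DESeq2 with either agent, and 3 had an unadjusted p under 0.05 with each. The genes called higher were low in level, FOXA2 reaching 7.11 CPM and GATA4 3.39 CPM. KDR, of the same list and not called, had 4836 and 4357 counts in replicates 1 and 2 of CHIR99021 18 h. The list summed to between 108 and 301 CPM per library. SOX17, a defining gene of definitive endoderm, was at 0 in 9 of 10 libraries, and the summed level of the 6 endoderm markers was 1.36 to 1.64 CPM in mTeSR1 and 3.24 to 9.78 CPM in the treated groups.

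The activity of the pathway itself was read from 10 of its genes, 9 of them tested. AXIN2, TCF7 and NKD1 rose after WNT3A 6 h, and RNF43 joined them at 18 h, while TCF7L1, a repressor, fell by 1.69 ± 0.29. The same 4 rose after CHIR99021 18 h together with LEF1 (6.56 ± 1.24), and TCF7L1 fell by 1.29 ± 0.26. With the block, RNF43 passed after WNT3A 6 h (FDR 0.0296) and LEF1 after WNT3A 18 h (0.0306). Without the pair with a length trend 0 of the 9 were called in any of these 3 comparisons. Without either mTeSR1 library 0 were called after WNT3A 6 h or CHIR99021 18 h, and without CHIR99021 18 h replicate 2 there were 2. After WNT3A 18 h 0 were called when the first library of either group was left out. Leaving out the second library gave 1 call for mTeSR1 and 2 for WNT3A 18 h. After CHIR99021 6 h 0 of 9 were called by edgeR, unadjusted p-values under 0.05 numbered 3, and AXIN2 was called by DESeq2. There AXIN2 measured 104 and 112 CPM, beside 39.3 and 31.8 CPM in mTeSR1 and 250 and 184 CPM after WNT3A 6 h. AXIN2 was thus lower with CHIR99021 than with WNT3A at 6 h in both repeats and above mTeSR1 in each, as TBXT was.

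TBX3 is counted among the genes of naive pluripotency, so 10 others of that state were read beside it, 9 of them tested. KLF5 rose after WNT3A 6 h (3.89 ± 0.28), WNT3A 18 h (2.62 ± 0.27) and CHIR99021 18 h (2.82 ± 0.29). NR5A2 rose after 18 h of either agent and KLF4 after CHIR99021 18 h. After CHIR99021 6 h 0 of 9 were called by edgeR, 2 had an unadjusted p under 0.05, and KLF5 was called by DESeq2 and by edgeR with the block (FDR 0.0285). With the block NR5A2 also passed after WNT3A 6 h, and KLF4 and TFAP2C after WNT3A 18 h. In place of 2 genes at WNT3A 18 h, 1 was called without any 1 of the 4 libraries compared. In place of 3 at CHIR99021 18 h, 0 were called without mTeSR1 replicate 2, and 1 without mTeSR1 replicate 1, CHIR99021 18 h replicate 2 or the pair with a length trend. KLF17, a naive marker, had 0 counts in all libraries, and the list median lay between -0.16 and 0.31 in the comparisons with mTeSR1.

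Markers of pluripotency and of other cells that the cultures could hold were read next. The 9 pluripotency markers summed to 9846 and 10043 CPM in mTeSR1 and to between 7061 and 9025 CPM in the treated libraries. Of the 9 pluripotency markers read here, USP44 fell after WNT3A 18 h and TERF1 after CHIR99021 18 h. After 6 h of either agent 0 of 9 were called by edgeR or DESeq2, and 1 passed an unadjusted p of 0.05 with each. With the block, and by DESeq2, DNMT3B and TERF1 also fell after WNT3A 18 h. The call of USP44 was lost without any 1 of the 4 libraries compared or the pair with a length trend, and that of TERF1 without either mTeSR1 library, CHIR99021 18 h replicate 2, the pair or the block. The summed level of 10 amnion and trophoblast markers was 18.8 to 25.3 CPM in mTeSR1 and 8.80 to 11.8 CPM after 18 h of either agent, of which GABRP fell by 2.00 ± 0.43 after CHIR99021 18 h, a call lost without any 1 of the 4 libraries compared, the pair or the block. With the block GABRP and KRT7 fell after WNT3A 18 h. CGA had a count in 1 library, and GATA3 and TFAP2A did not exceed 0.261 CPM. The 8 neural markers summed to 282 to 353 CPM in mTeSR1 and to 216 to 348 CPM in the treated libraries. Of the 4 tested, 0 were called by edgeR or DESeq2 in any comparison with mTeSR1, and 1 had an unadjusted p under 0.05, after CHIR99021 18 h. Their median log2 change lay between -0.80, after CHIR99021 18 h, and 0.14, after WNT3A 6 h. Of 13 mitochondrial genes 0 were called by edgeR in those comparisons. Their summed level was 26622 to 40749 CPM after WNT3A 18 h, where unadjusted p-values under 0.05 numbered 8 and calls by DESeq2 2, beside 38853 to 69262 CPM in mTeSR1, and with the block 5 fell. Their part in the T-box levels was not tested.

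The genes whose profiles over the 10 libraries were nearest to each member were found by the root mean square (RMS) difference of log2 CPM (prior count 2), each gene having been centred on its own mean. Among all genes tested the nearest to TBXT was EOMES, and the nearest to EOMES was TBXT, at an RMS difference of 0.618 log2 units, where their own SDs over the libraries were 3.45 and 3.31. Next to TBXT came CDX2 (0.816), CDX1 (0.868), GBX2 (1.02), a homeobox gene of posterior identity, and WNT5B (1.04). Next to EOMES came GBX2 (0.926), WNT5B (1.06), CDX1 (1.10) and GAD1 (1.12), which makes the transmitter GABA. CDX2, for instance, had 0.157 and 0 CPM in mTeSR1, 18.7 and 11.4 after WNT3A 6 h, 50.4 and 25.5 after WNT3A 18 h, 1.46 and 1.08 after CHIR99021 6 h, and 0.954 and 41.4 after CHIR99021 18 h. At prior counts of 0.5 and 5, TBXT and EOMES remained nearest to each other, and of the 5 names each 3 or more were shared with the list above.

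**Figure D5:**
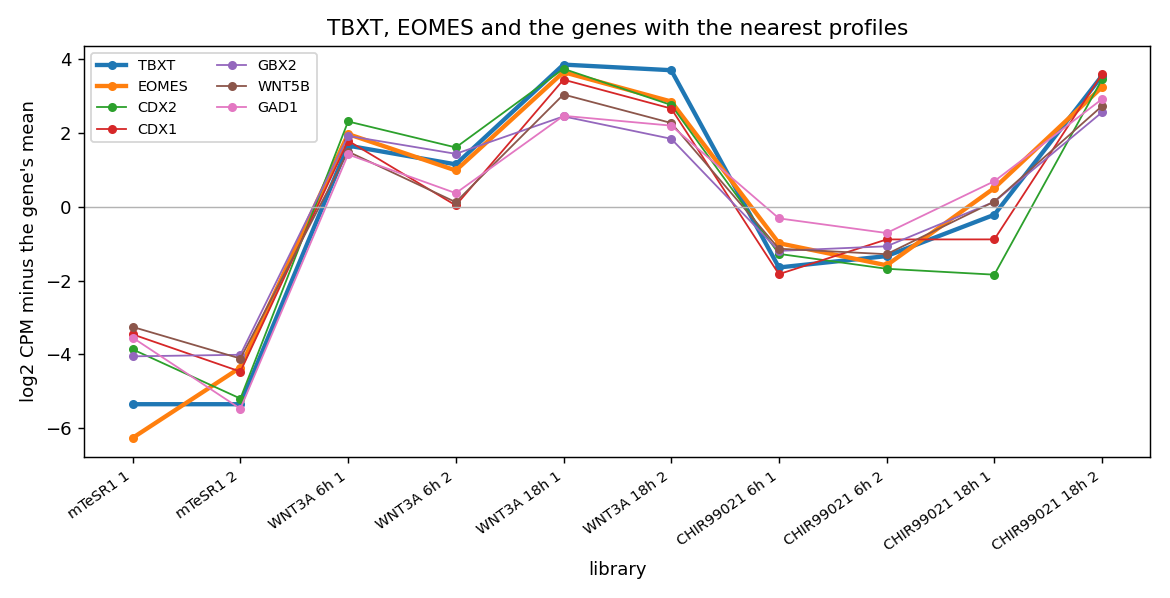
Log2 CPM (prior count 2) of TBXT, EOMES and the genes nearest to either, each minus its own mean over the 10 libraries, by library; thick lines are TBXT and EOMES, and lines join libraries only to guide the eye. All 7 genes are lowest in the mTeSR1 libraries, and CHIR99021 18 h replicate 2 lies above replicate 1 in each.

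TBX3 and TBX6 followed other genes. The nearest to TBX3 were SLCO4C1 (RMS 0.327), the pseudogene ENPP7P8 (0.378), CCND1 (0.381), the cyclin D1 gene, SALL3 (0.391) and STOX2 (0.414), where its own SD was 0.935. CCND1 and SALL3 rose after WNT3A 6 h, by 2.11 and 2.23 on the log2 scale, and after 18 h of either agent. These calls are given only with the pair of libraries with a length trend. TBX6 had an SD of 0.615, and the nearest to it were AC016582.1, ZHX1-C8orf76, ANKAR, ABCC9 and TAS2R5 (RMS 0.264 to 0.343). TBX6 rests on 7 to 44 counts a library, and AC016582.1 and ZHX1-C8orf76 had their lowest values, 0.162 and 0.175 CPM, in a CHIR99021 6 h library as TBX6 did. TBXT and TBX6 were 3.35 apart by the same measure, and EOMES and TBX3 2.57.

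Genes within 100 kb of each member's start were then read. TBXT has 6 annotated neighbours, of which none was in the table, and EOMES has 6, of which 3 were in the table and 0 passed the filter. TBX3 has 6, of which 1 was in the table and 0 passed. TBX6 lies in a dense stretch, with 18 neighbours, 13 in the table and 12 tested, the nearest being YPEL3 at 0.427 kb. Of those 12, 0 were called by edgeR in any comparison.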

How the data were processed

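Bulk RNA was sequenced in 10 libraries of ESI017 cells, 2 in each of 5 groups. The authors deposited a table of estimated counts per Ensembl identifier and library. Salmon 1.8.0 and GRCh38 are named per the submitters' processing notes, and the sources used here give neither the strand setting nor the step from transcripts to genes. Estimated counts were summed per symbol (1034 symbols have several identifiers) and rounded. Library totals ranged from 16648300 to 26732900.

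CPM used library totals scaled by TMM. Comparisons used edgeR 4.0.16 (quasi-likelihood, robust, in R 4.3.3) on 1 fit of all libraries, after a filter at edgeR's defaults (minimum count 10, minimum total 15), with Benjamini-Hochberg adjustment and a threshold of 0.05. The biological repeat was a block in the comparisons with CHIR99021 18 h and in the test of time by agent, because both libraries of that group are from repeat 2, and an alternative elsewhere. The series' design text says that equal numbers mark a shared repeat. Deviations of same-numbered libraries correlated at 0.261 to 0.595 over the 6 pairs of groups. The highest value was that of mTeSR1 with WNT3A 6 h, whose second libraries share the length trend, and the part of that trend was not tested. The labels do not say whether replicates came from separate cultures, so p-values measure the spread between these libraries. Replicate pairs differed by 13.1 to 108 times the sampling variance, so none was counted as 1 library. The script was tested on simulated data.

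Alternatives were the block, RLE size factors, DESeq2 1.42.0, no filter, a minimum count of 50, a fit per identifier, only the groups compared, robust estimation off, and leaving out each library. Leaving out the pair of libraries with a length trend was added after the data were seen. One item of the marker lists is not reported here. The members and gene lists were chosen with earlier results of these data known. Named genes were the members, the other T-box genes, up to 4 called genes of each list per comparison with the lowest FDR, the 5 genes nearest in profile to each member, and called genes within 100 kb; other names were chosen after their values were seen. Gene coordinates come from GENCODE 29 and promoters from RefSeq (GRCh38.p14).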

Additional observations from a re-analysis of the deposited data

Results flagged for a closer look

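The change of TBX3 with time was below 0 in both repeats of WNT3A, and no direction was shown under CHIR99021. From 6 h to 18 h of WNT3A its log2 ratio of CPM was -1.28 in repeat 1 and -0.81 in repeat 2. Against the CHIR99021 6 h library of repeat 2, the CHIR99021 18 h libraries gave log2 ratios of 0.0083 and 0.78. The first of these was above 0 by less than 1 count. The fitted CHIR99021 change was 0.15 (FDR 0.984), and it was -0.39 without CHIR99021 6 h replicate 2 and -0.29 without CHIR99021 18 h replicate 2. The edgeR test of the difference between the agents gave 1.13 on the log2 scale and did not pass (FDR 0.927).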

How the results depend on the processing

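Of 456 alternative values for the T-box genes, 409 kept their direction and their side of the threshold, most of them for results not called in the main fit. Called results held less often. After WNT3A 18 h TBXT kept its call in 6 of 13 alternatives and EOMES in 8 of 13. After CHIR99021 18 h EOMES kept its call in 7 of 13. Counts of called genes were judged by another rule, their ratio to the main count, and 49 of 119 were scored as the same. For each alternative that changed a value, the cause was not tested.

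With the replicate block, the genes called were 168 in place of 66 for WNT3A 6 h against mTeSR1, 751 in place of 320 for WNT3A 18 h, 21 in place of 3 for CHIR99021 6 h, 279 in place of 22 for WNT3A 18 h against 6 h and 3 in place of 1 for CHIR99021 against WNT3A at 6 h. With no replicate block they were 181 in place of 424 for CHIR99021 18 h against mTeSR1 and 0 in place of 1 for CHIR99021 18 h against 6 h. Among the members the block changed only the calls of TBXT at 18 h given in the report. In the order WNT3A 6 h, WNT3A 18 h, CHIR99021 6 h and CHIR99021 18 h against mTeSR1, DESeq2 called 249, 808, 65 and 923 genes. It called 415 between the WNT3A times, 130 between the CHIR99021 times, 30 between agents at 6 h, 10 between agents at 18 h and 6 for time by agent. With no filter the counts were 173, 576 and 32 for the first 3 comparisons with mTeSR1, 275 and 21 between times, 9 between agents at 6 h and 1 for time by agent. Per identifier, 1 and 254 genes were called for CHIR99021 6 h and 18 h against mTeSR1, 0 between the CHIR99021 times, 1 between agents at 18 h and 1 for time by agent. With only the groups compared, 2, 16 and 1241 genes were called for WNT3A 6 h, CHIR99021 6 h and CHIR99021 18 h against mTeSR1, 1 and 0 between times for WNT3A and CHIR99021, and 3 between agents at 6 h. With robust estimation off, 2 were called between agents at 6 h.

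Without the pair of libraries with a length trend, 10, 128, 1 and 96 genes were called against mTeSR1, 0 between the WNT3A times, 0 between agents at 6 h and 11 for time by agent. Leaving out 1 library gave 13 to 70, 53 to 75, 1 to 1 and 10 to 522 genes against mTeSR1, 0 to 101 and 0 to 83 between times, 0 to 0 and 0 to 6 between agents at 6 h and 18 h, and 0 to 6 for time by agent.

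Several log2 differences changed sign when 1 library was left out. TBX6 ranged from -1.22 to 0.060 for WNT3A 6 h against mTeSR1 (above 0 without WNT3A 6 h replicate 1), and from -0.37 to 0.91 between the WNT3A times (below 0, at -0.37 and -0.02, without replicate 1 of 6 h or of 18 h). It ranged from -0.0040 to 1.21 between the CHIR99021 times (below 0 without CHIR99021 18 h replicate 2) and from -1.68 to 0.041 between agents at 6 h (above 0 without WNT3A 6 h replicate 2). TBX3 ranged from -0.39 to 0.47 between the CHIR99021 times (-0.39 without CHIR99021 6 h replicate 2, -0.29 without CHIR99021 18 h replicate 2) and from -0.39 to 0.59 between agents at 18 h (-0.39 without CHIR99021 18 h replicate 2, -0.19 in the absence of WNT3A 18 h replicate 1). EOMES between agents at 18 h ranged from -2.38 to 0.37 (above 0 without CHIR99021 18 h replicate 1). For time by agent, TBXT ranged from -0.95 (without CHIR99021 18 h replicate 2) to 2.85, and TBX6 from -0.50 (WNT3A 18 h replicate 2 left out) to 1.02, with -0.16, -0.30 and -0.24 on leaving out CHIR99021 6 h replicate 1, WNT3A 6 h replicate 2 or CHIR99021 18 h replicate 2. Without the pair with a length trend TBX6 was 0.047 between agents at 6 h and -0.30 for time by agent, and with only the groups compared TBX3 was -0.18 between agents at 18 h.

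The call of EOMES was also lost with no filter, at an FDR of 0.0735 after WNT3A 18 h and 0.130 after CHIR99021 18 h, where it was lost per identifier (0.0643) and with only the groups compared (0.385) too. TBXT after WNT3A 18 h had an FDR of 0.168 with no filter, and after CHIR99021 18 h it passed with robust estimation off (0.0468). Counts of 0 to 5 in mTeSR1 limit how precisely the rises of TBXT, EOMES and TBX3 can be sized.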
